A study of Ovis aries with 6 samples.

Results

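The blocks described here are the 100 kb stretches of the autosomes with the lowest background DNA methylation in sheep perirenal fat, which surrounds the kidney. Autosomes 1 to 26 were divided into fixed bins of 100 kb from base 1, on the sheep build Oar_v3.1. Background means the CpGs outside all deposited lists of unmethylated regions (UMRs), low-methylated regions (LMRs) and DNA methylation valleys (DMVs) of both stages. A CpG was usable when covered by 3 or more reads in every one of the 6 animals, and a bin needed at least 100 usable CpGs. Of 24433 bins that qualified, the 2443 with the lowest level, methylated over covering reads summed over the 6 animals, are called low bins. The 2443 with the highest level are called high bins, and the other 19547 middle bins.

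The study compared 3 fetuses with 3 lambs by whole-genome bisulfite sequencing, which reads unmethylated cytosine as T, so a CpG is scored by the percentage of its reads that kept a C. All 6 animals were wild-type, pure-bred Merino sheep that received no treatment, and each is a separate animal from its own ewe. Fetal tissue was taken at 132 days post conception, with term at 150 days, and is labelled brown adipose; lamb tissue is labelled white adipose and was taken at 89 days after birth per the sample labels, or 80 days per the series text. Sex is not in the labels, and the tissue labels were not checked against marker genes, since genes were not annotated on this build. For the same reason the blocks are named by position and no sequence is printed. Each level is an average over all cells of a tissue sample, so a different mix of cells and a different level within the cells cannot be told apart.

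Mammalian DNA is methylated at most CpGs outside regulatory elements. Many tissues and cultured cells also hold long domains in which this background is lower, often with few genes and few CpGs, and the methylation of widely spaced CpGs in such domains is known to be the least well kept through cell divisions. Brown adipose tissue makes heat around birth, and in sheep the perirenal depot turns from brown to white fat in the first weeks of life.

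Mean coverage of an autosomal CpG was 7.45, 5.38 and 6.60 reads in fetuses 1, 2 and 3 and 8.00, 5.22 and 5.59 reads in lambs 1, 2 and 3. Fetus 2 and lamb 2 thus had the lowest depth of their stages. A low bin rested on a median of 195 usable CpGs and 1425 reads per animal, a read being counted at each CpG it covers, against 437 CpGs and 3392 reads over all bins.

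The levels that chose the bins formed 1 broad distribution with no gap at the threshold. Over all bins the median was 78.7%, with quartiles of 74.2% and 82.0%, and the lowest and highest bins were at 56.0% and 93.1%. The low bins had a median of 68.7%, with quartiles of 66.9% and 69.7%, and the high bins a median of 86.2%, with quartiles of 85.2% and 87.5%. The last bin inside the threshold, on chromosome 23 from 9900001 to 10000000, and the first outside it, on chromosome 8 from 3300001 to 3400000, were both at 70.5%, so the low bins are the lower end of a continuum and not a separate class. No low bin was unmethylated, the lowest being at 56.0%.

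**Figure D1:**
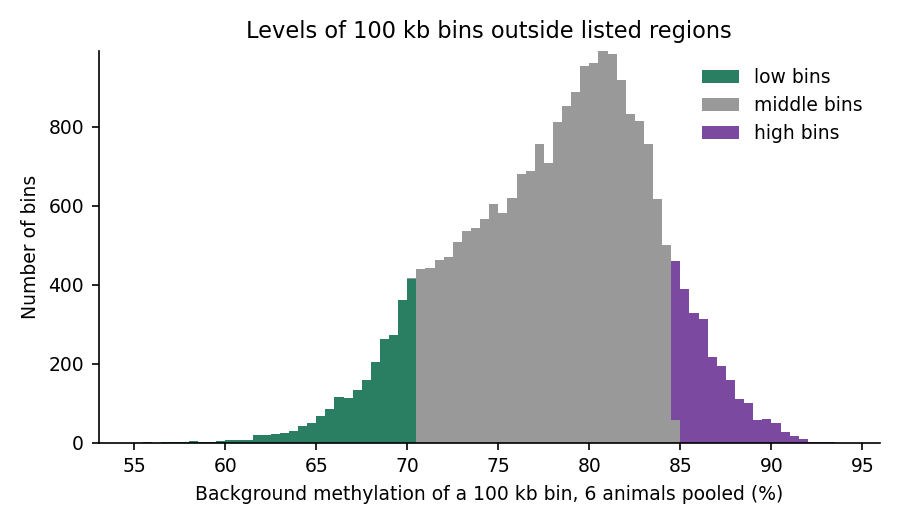
Number of 100 kb bins (vertical axis) at each background methylation level in percent, 6 animals pooled (horizontal axis, steps of 0.5), coloured by class. The distribution has 1 peak, and the low bins form its lower tail up to 70.5%.

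The lower level was spread over the length of the bins. When each bin was divided into pieces of 10 kb with at least 10 usable CpGs, 67.1% of the 21176 pieces of low bins were at or under the 70.5% threshold themselves, and only 0.198% were under 50%. In middle bins 9.81% of pieces, and in high bins 0.401%, were at or under 70.5%. Single CpGs showed the same spread. With the reads of the 6 animals pooled, 1.81% of the 567021 usable CpGs in low bins were under 20%, while 20.1% lay between 40% and 60% and 36.4% between 60% and 80%. In high bins 4.93% of CpGs lay between 40% and 60%, and 78.6% were at 80% or more, against 34.0% in low bins. These shares rest on the levels that chose the bins and are given as a description.

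The level was also read at CpGs that had not chosen the bins. When the bins were chosen on every other usable CpG and read at the remaining CpGs, the low bins were at 68.2% ± 0.862 in fetuses and 69.5% ± 1.50 in lambs (SD, n = 3 each), close to the values with all CpGs. The remaining CpGs lie between the choosing ones, in the same animals and libraries, and can share reads with them. They are thus not independent of the choice. Bins chosen on the fetuses alone and bins chosen on the lambs alone shared 1983 of 2443 members, or 81.2% of each list. Stricter minimums changed which bins could qualify at all. With a minimum of 5 reads per CpG, 18324 bins qualified, among them 576 of the 2443 low bins, and 573 of these 576 were chosen again. They made up 31.3% of the 1832 low bins of that setting. With at least 200 CpGs per bin, 1156 of the low bins qualified and all of these were chosen again, making up 53.1% of that setting's low bins.

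The low bins were not scattered singly. They fell into 964 runs of neighbouring low bins, and 80.3% of them lay in a run of 2 or more, against 59.9% of the high bins. Runs of at least 5 bins numbered 123 and held 42.4% of the low bins, whereas 40 such runs held 9.33% of the high bins. The longest run of low bins covered 4.0 Mb and the longest run of high bins 0.9 Mb.

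The longest run lay on chromosome 4 from 100001 to 4100000, almost from the first base of the chromosome. Its 40 bins ran from 60.8% to 69.7%. It was at 64.8%, 65.5% and 63.8% in fetuses 1, 2 and 3 and at 64.8%, 69.1% and 66.9% in lambs 1, 2 and 3, so the stages overlapped. It held 301 fetal and 228 lamb LMRs, partly methylated intervals typical of enhancers, and 8 fetal and 5 lamb UMRs, which include most CpG-rich promoters. The next longest run, on chromosome 2 from 106700001 to 109700000, was at 66.7%, 68.1% and 66.9% in fetuses and 66.6%, 69.8% and 67.4% in lambs. With 22 bins, the run on chromosome 10 from 6100001 to 8300000 and that on chromosome 2 from 189100001 to 191300000 shared the third place. The first of these was at 66.9% ± 1.71 in fetuses and 67.8% ± 1.41 in lambs, and the second at 67.5% ± 0.794 and 68.8% ± 1.59 (SD, n = 3 each). The second held 71 fetal LMRs and no UMR of either stage. In each of these 4 runs lamb 2 had the highest level of the 6 animals, and the animals of the stages overlapped.

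Low methylation reached beyond the edges of the runs. Around the 91 runs of at least 6 low bins, the bins 200 kb outside an edge had a median of 71.2%, and those 1000 kb outside a median of 73.2%, against 78.7% over all bins. Of the bins 1000 kb outside, 36.8% were low bins themselves, against the 10% that the rule takes. The bins outside were also poor in CpGs, with medians of 596.5 at 200 kb and 602.5 at 1000 kb, against 839 over all bins. Wherever they lay, bins with 525 to 591 CpGs had a median level of 73.6%, and those with 592 to 663 CpGs 76.3%. The part of CpG number in the level beyond the edges was not tested. The bin next to an edge is outside the low class by the way runs were built. Inside the edge, the outermost bins had a median of 68.3% and the third bins inward 67.2%.

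**Figure D2:**
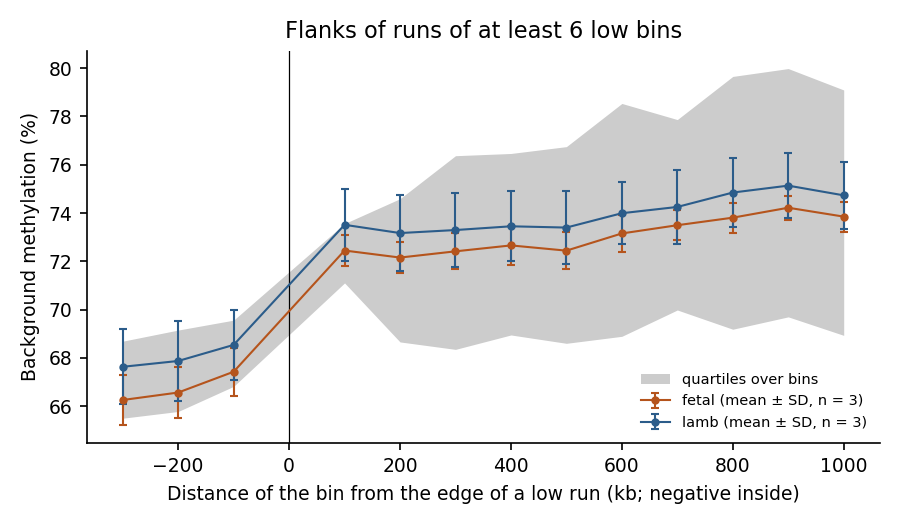
Background methylation in percent (vertical axis) of 100 kb bins by their distance in kb from the edge of a run of at least 6 low bins (horizontal axis, negative inside the run). Points and bars are the mean ± SD over the 3 animals of a stage of the mean over bins, and the grey band spans the quartiles over bins, 6 animals pooled. The stage means stay below the median of all bins, 78.7%, out to 1000 kb in both stages.

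Along the chromosomes the low bins gathered near the start. In the assembly's first 2 Mb of the autosomes, 160 of 508 bins, or 31.5%, were low bins, against 3 of 542 bins, or 0.554%, in the last 2 Mb. The share was 19.1% from 2 to 5 Mb and 13.8% from 5 to 10 Mb after the start, and 1.92% and 5.08% at those distances before the end. High bins went the other way, with 8.86% in the first and 19.9% in the last 2 Mb. Most sheep autosomes are acrocentric, with the centromere near 1 end; which end the assembly puts first was not checked here. Of the 26 autosomes 20 had a low bin in the first 2 Mb, but 9 had more than 5. On chromosomes 4, 6, 11 and 20 all bins that qualified there were low, numbering 19, 20, 18 and 14, while chromosomes 2, 3, 8, 13, 19 and 24 had none. Over whole chromosomes the share of low bins ran from 3.39% on chromosome 13 to 16.3% on chromosome 15.

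**Figure D3:**
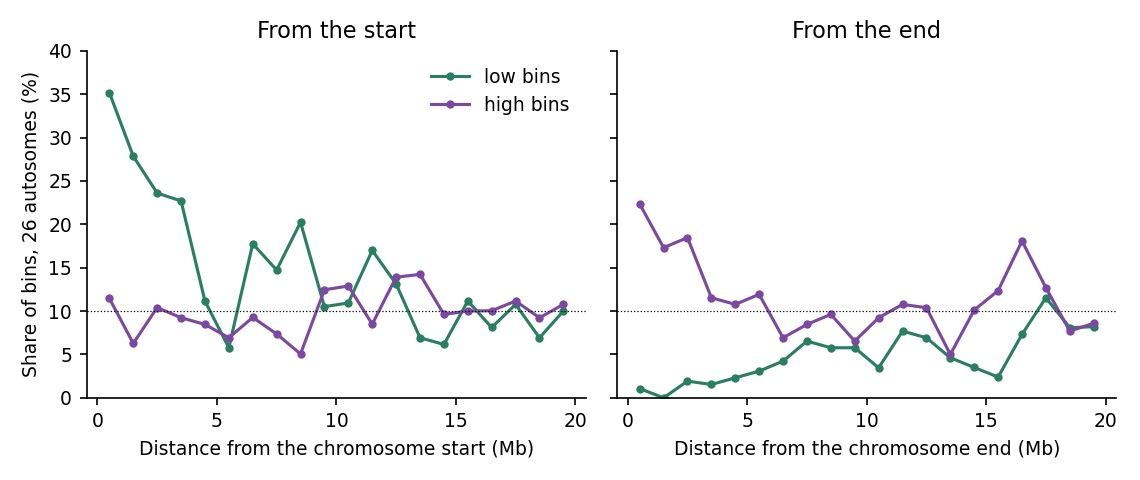
Share in percent (vertical axis) of 100 kb bins on the 26 autosomes that are low or high bins, in steps of 1 Mb from the chromosome start (left) and from the chromosome end (right). The dotted line is the 10% that the rule takes; the first 1 Mb from the start holds 35.2% low bins.

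The low bins near chromosome starts were lower than the rest and held more LMRs. Their median level was 64.9%, against 68.8% in the other 2283 low bins. They had a median of 8 fetal and 7 lamb LMRs per bin, against 3 and 3, and a median of 19.6% of their CpGs lay in a listed region, against 7.73%. The number of CpGs was close, with medians of 567 and 544 per bin.

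Low bins were poor in CpGs. They listed a median of 545 CpGs, with quartiles of 490.5 and 631, against 873 in high bins and 885 in middle bins. The low bins made up 244.3 Mb but held 5.96% of the CpGs listed in the bins. A CpG with no other listed CpG within 50 bases on either side, called isolated here, made up a median of 43.8% of the background CpGs of a low bin, against 34.6% in high bins. Depth was lower too, with a median of 4.86 reads per background CpG and animal in low bins and 6.27 in high bins, and a median of 40.5% and 60.5% of the background CpGs were usable. The part that depth has in the level of the low bins was not tested. Over the 24433 bins Spearman's rho of level was 0.446 with the number of CpGs and 0.415 with coverage; both come from the same libraries as the level, and bins are not independent. Among the tenth of bins with the fewest CpGs, 278 to 524, 40.9% were low and 2.29% high. Among the tenth with the most, 1742 to 4702, only 0.737% were low.

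Isolated CpGs had the lowest level within the low bins. They were at 60.9%, 62.9% and 61.2% in fetuses 1, 2 and 3 and at 61.5%, 65.2% and 62.6% in lambs 1, 2 and 3. CpGs of low bins with 4 to 6 neighbours were at 77.0%, 77.1% and 75.8% in fetuses and 77.9%, 79.7% and 79.2% in lambs. Each of the 6 animals thus showed the lower level at isolated CpGs, by more than the spread between animals. In high bins the same groups were closer, at 83.9% ± 0.242 and 88.1% ± 0.324 in fetuses and 84.0% ± 1.18 and 88.5% ± 0.653 in lambs (SD, n = 3 each). The low bins were below the high bins in every group of spacing, an order that the choice of bins on these same CpGs largely fixes. At 7 or more neighbours low bins were at 74.4% ± 1.62 in fetuses and 76.0% ± 1.32 in lambs (SD, n = 3 each), from 3151 CpGs.

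**Figure D4:**
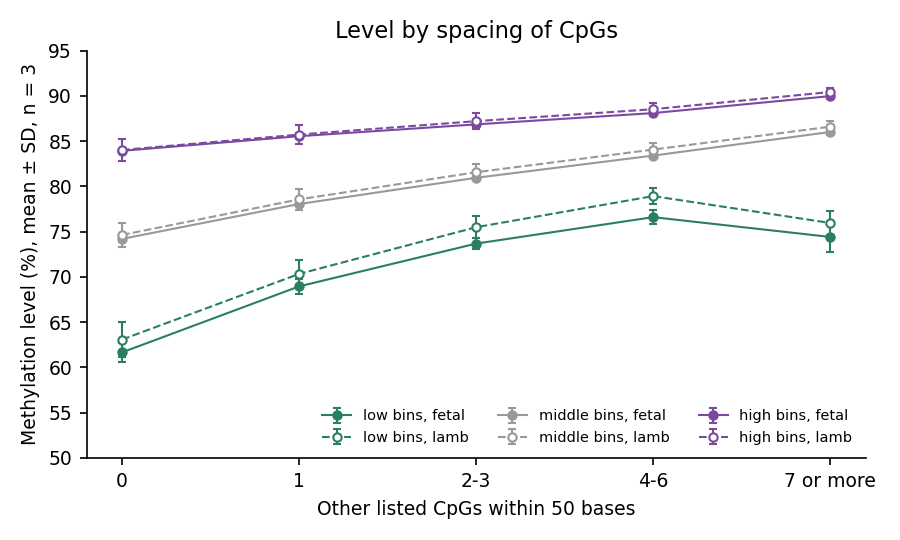
Methylation level in percent (vertical axis) of background CpGs by the number of other listed CpGs within 50 bases (horizontal axis), for low, middle and high bins and both stages. Points and bars are the mean ± SD of 3 animals; isolated CpGs of low bins are lowest, at 61.7% in fetuses and 63.1% in lambs.

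The deposited regions inside the low bins also differed from those elsewhere. Their CpGs were masked when the bins were chosen. Each region was counted in the bin that holds its midpoint. LMRs were present in 98.4% of low, 95.1% of middle and 72.8% of high bins, and in 93.2% of all bins. UMRs were present in 16.6% of low, 44.6% of middle and 55.1% of high bins, and in 42.8% of all bins. At like CpG number the UMR shares stood otherwise: in the tenth of bins with the fewest CpGs they were 7.79% of low, 2.38% of middle and 3.57% of high bins. With 525 to 591 CpGs they were 10.3%, 4.78% and 7.59%, and with 592 to 663 CpGs 20.9%, 12.1% and 23.8%. Among bins with at least 664 CpGs low bins again had the smallest share, 39.5%, against 57.3% and 64.0%, though their median number of CpGs was 805 there, against 1046 and 971. A low bin held 4.31 fetal LMRs on average, or 431 per 100 bins, against 212 per 100 high bins and 473 per 100 middle bins. At like CpG number low bins held more than middle bins: the mean was 3.12 against 1.58 in the tenth with the fewest CpGs, 3.68 against 1.71 with 525 to 591 CpGs, 4.46 against 2.02 with 592 to 663 CpGs, and 7.38 against 5.72 among bins with at least 664 CpGs. Fetal LMRs in low bins were long, with a median of 1359 bases and 7 CpGs, against 558 bases and 8 CpGs in middle bins and 478 bases and 8 CpGs in high bins. Sharing between the stages was counted without a test. Of the 10527 fetal LMRs in low bins 56.3% overlapped a lamb UMR or LMR by at least 1 base, against 72.2% in middle and 72.2% in high bins. For the 9624 lamb LMRs in low bins the share was 63.0%, against 75.8% and 76.8%. The calling of these lists is not documented here, and the part that the surrounding level has in which regions were listed was not tested.

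Inside the LMRs of low bins the level was 39.4%, 40.8% and 38.3% in fetuses 1, 2 and 3 and 40.3%, 42.9% and 41.0% in lambs 1, 2 and 3. Lamb 1 lay below fetus 2, so the stages overlapped. LMRs of middle bins were at 33.5% ± 0.855 and 34.9% ± 0.625, and those of high bins at 32.4% ± 0.464 and 34.4% ± 0.763 (SD, n = 3 each). Every animal was therefore higher in the LMRs of low bins, where the surroundings were lower. These levels take the lists of both stages together, and fewer LMRs were shared between the stages in low bins. The part of this sharing in the level was not tested. UMRs followed the same order, at 17.5% ± 1.07 in fetuses and 19.1% ± 0.658 in lambs within low bins and 7.71% ± 0.203 and 7.70% ± 0.133 within high bins (SD, n = 3 each). UMRs of low bins were also longer and held fewer CpGs, with medians of 4215 bases and 52 CpGs in the fetal list against 1976 bases and 81 CpGs in high bins. DMVs, broad methylation-free tracts known to contain genes of developmental regulators, had their midpoint in 19 of 2443 low bins, or 0.778%, against 1.95% of all bins. Within low bins DMVs were at 5.27% ± 0.435 in fetuses and 6.63% ± 0.537 in lambs (SD, n = 3 each). In middle bins DMVs were at 5.35% ± 0.159 and 6.10% ± 0.216, and in high bins at 4.72% ± 0.142 and 5.63% ± 0.344 (SD, n = 3 each). The order of LMRs and UMRs thus did not hold for DMVs in fetuses.

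By distance from a listed region the levels, which also chose the bins, are a description. At 1 to 500 bases from a listed region low bins were at 66.3% ± 0.813 in fetuses and 67.8% ± 1.20 in lambs, and at over 20 kb at 68.3% ± 1.07 and 69.6% ± 1.78 (SD, n = 3 each). High bins showed the wider step, from 77.3% ± 0.239 next to a listed region to 88.0% ± 0.322 at over 20 kb in fetuses. With a further 1 kb masked on each side of each region, 86.8% of the low bins were chosen again.

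The authors' differentially methylated regions (DMRs) were rare in low bins. Low bins held 6 DMRs from the list named hyper and 3 from the list named hypo, which is 0.368 per 100 bins, against 4.55 in middle and 5.03 in high bins. Per 100000 listed CpGs the values were 0.607, 4.30 and 4.56, and per 1000 entries of the UMR and LMR lists 0.422, 4.09 and 8.42. The difference moved with CpG number: among the tenth of bins with the fewest CpGs there was 1 DMR in 1001 low bins and 1 in 1389 middle bins. Among bins with at least 664 CpGs, low bins held 7 DMRs in 499, or 1.40 per 100, and middle bins 5.94 per 100. DMRs were chosen by the authors on these animals, coverage was lower in low bins, and the part of depth in finding DMRs there was not tested.

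Between the stages, the summed level of the low bins was higher on average in lambs, but the animals overlapped. It was 67.0%, 68.6% and 67.2% in fetuses 1, 2 and 3 and 67.6%, 70.6% and 68.5% in lambs 1, 2 and 3. Lambs 1 and 3 lay below fetus 2, and lamb 2 stood above all others. The means were 67.6% ± 0.884 and 68.9% ± 1.53 (SD, n = 3 each). They differed by 1.28 percentage points, within the spread of the lambs. Middle bins differed by 0.386 points, at 79.0% ± 0.200 and 79.4% ± 1.02, and high bins by 0.164 points, at 86.3% ± 0.252 and 86.4% ± 0.898 (SD, n = 3 each). Without lamb 2 the difference was 0.463 points in low bins and -0.166 points in high bins. Without fetus 2 it was 1.74 points in low bins, and then each lamb was above each remaining fetus.

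The gap between high and low bins varied among animals as much as between stages. It was 19.3, 17.4 and 19.3 points in fetuses 1, 2 and 3 and 17.8, 16.5 and 18.3 points in lambs 1, 2 and 3. Fetus 2 had the smallest gap of the fetuses and lamb 2 of the lambs; both also had the lowest coverage of their stage, and the part of depth in the gap was not tested. Fetus 2 was the highest of the fetuses in 64.5% of low bins and in 21.3% of high bins. Lamb 2 was the highest of the lambs in 79.0% of low and 58.1% of high bins.

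**Figure D5:**
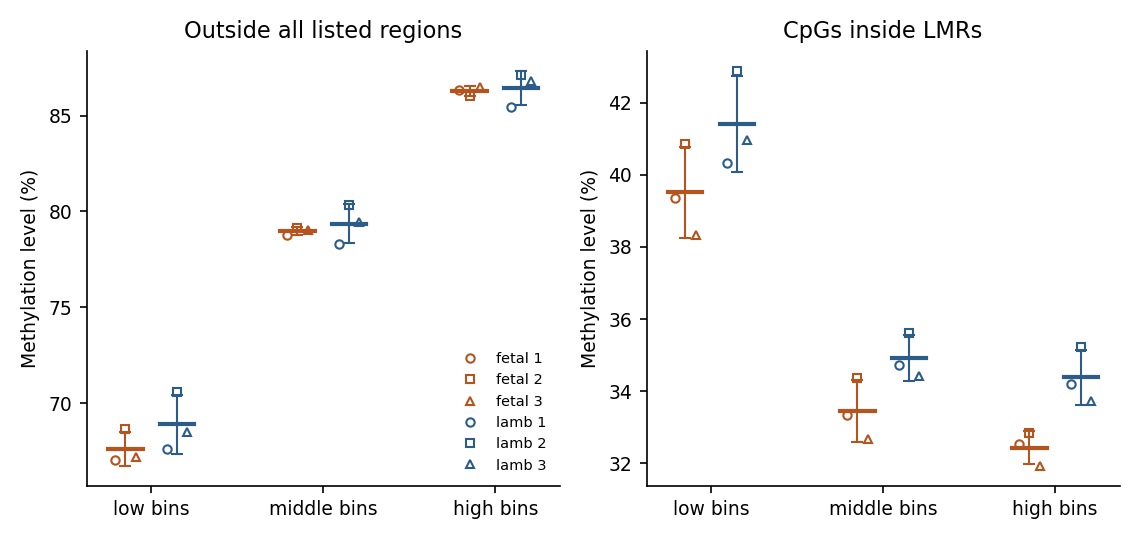
Methylation level in percent (vertical axes) of each animal in low, middle and high bins, for background CpGs (left) and for CpGs inside LMRs of either stage (right). Symbols are animals, lines and bars the mean ± SD of 3; the vertical axes do not start at 0. In low bins the animals of the stages overlap in both panels, and LMRs of low bins are above those of other bins in every animal.

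Counted bin by bin, the mean was higher in lambs in 1992 of 2443 low bins, or 81.5%, against 67.5% of all bins and 54.6% of high bins. Neighbouring bins are not independent, and the bins share the same 6 animals. The share for low bins was 59.5% without lamb 2, against 48.2% of all bins, and 88.2% without lamb 1. With each animal centred on its own median over bins it was 73.2% of low bins against 52.8% of all and 33.1% of high bins. Where the stages did not overlap, lambs were higher in 261, or 10.7% of the low bins, where the background over all bins is 7.31%, and lower in 15, or 0.614%, where it is 2.32%. Among bins of like CpG number the order was the same. In the tenth with the fewest CpGs the median difference was 1.47 points in low, 0.922 in middle and -0.232 in high bins, the last from 56 bins.

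Few single bins could be called different between the stages. A quasi-binomial logistic model, with the dispersion moderated over all bins as in limma, called 4 low bins at an adjusted p under 0.05 (Benjamini-Hochberg over the 24433 bins), 3 higher and 1 lower in lambs. The background over all bins was 15 calls, or 0.0614%, with 0.0327% higher and 0.0286% lower in lambs, and 0 of the 2443 high bins were called. An unadjusted p under 0.05 was found for 100 low bins, or 4.09%, and 87 high bins, with 5.56% over all bins. The fit used the same dispersion, 4.19, for all bins. The medians of the bins' own dispersions were 2.91 in low, 3.51 in middle and 3.80 in high bins. The share called was 0.164% of low bins, from 4 bins, and its difference from the background was not tested. limma on log2 ratios called 0 bins in all. Its unadjusted p was under 0.05 for 1212 bins (4.96%), 232 of them low (9.50% of low bins). edgeR called 1 low bin (0.0246% of all bins called), as did the model with a prior dispersion that follows read number (0.0286%), the model with the replicate number as a block (0.0205%) and the rule that also asks for at least 5 points (0.0164%). By unadjusted p under 0.05, low bins also exceeded all bins with limma after centring, at 10.2% against 8.27%. With the prior that follows read number the shares were 6.14% and 5.14%. Low bins were below all bins with edgeR, 4.83% against 5.24%, and with the replicate block, 5.98% against 7.61%.

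The called low bin with the largest difference lay on chromosome 3 from 220400001 to 220500000. It was at 77.4%, 70.3% and 74.2% in fetuses 1, 2 and 3 and at 65.7%, 60.5% and 60.5% in lambs 1, 2 and 3, so each lamb was below each fetus. The fetal mean, 73.9%, was above the 70.5% threshold and the lamb mean, 62.3%, below it. With the animals pooled the bin was at 69.0%, so it entered the low bins through the lambs. The difference was -11.7 points (adjusted p = 0.00297, quasi-binomial model with limma's moderation). The fit used the dispersion shared by all bins, 4.19, which is below this bin's own value of 5.70. Its 138 usable CpGs lay in the first 20 kb of the bin, in a piece with 116 CpGs at 74.7% ± 4.37 and 63.0% ± 3.59 and a piece with 22 CpGs at 70.4% ± 4.30 and 58.8% ± 3.80 (SD, n = 3 each). The neighbouring bins were middle bins with differences of -0.214 points before it and -1.17 points after it. The rest of the bin held no usable CpG, so the extent of the difference within it is not known. No DMR of the authors' lists had its midpoint in the bin. It was also the low bin called by edgeR, with the replicate block and with the prior that follows read number. The call was lost without fetus 1 (adjusted p = 0.499), without fetus 3 and without lamb 3, with differences of -9.97, -11.6 and -10.8 points, and with limma on log2 ratios (adjusted p = 0.143).

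The other 3 called low bins were rich in CpGs, unlike most low bins. The first bin of chromosome 20, from 1 to 100000, listed 2870 CpGs and was at 66.4%, 64.5% and 63.2% in fetuses and 67.6%, 69.1% and 68.1% in lambs. The first bin of chromosome 18, from 1 to 100000, listed 2172 CpGs and was at 60.2%, 61.4% and 60.3% in fetuses and 64.3%, 64.0% and 63.8% in lambs. The bin on chromosome 3 from 106500001 to 106600000, away from both ends, listed 2449 CpGs and was at 66.4%, 67.1% and 65.2% in fetuses and 69.3%, 69.0% and 69.2% in lambs. In each of the 3 the lambs were higher without overlap, by 3.55, 3.40 and 2.91 points (adjusted p = 0.00214, 0.0187 and 0.0131, quasi-binomial model with limma's moderation). All of their 10 kb pieces that held at least 10 usable CpGs had the higher mean in lambs, 9 of 9, 10 of 10 and 10 of 10. The stages did not overlap in 5, 4 and 5 of these pieces, and the share over the pieces of all bins was not counted. The pieces hold the reads on which the bins were called, so they are a description and no further support. These bins carried 13804, 10820 and 14213 reads per animal, against a median of 1425 in low bins, and the smaller differences were called where reads were many. Each of the 3 calls was lost with limma on log2 ratios, plain or centred, with edgeR, with the replicate block, with the prior that follows read number and with 1 kb more masked beside listed regions. Each was also lost without fetus 3 (adjusted p = 0.864, 0.380 and 0.864 in the same order, quasi-binomial model with limma's moderation). The first was lost without lamb 2 as well, and the others without fetus 1 and without lamb 3. The bin on chromosome 18 was further lost with a minimum of 5 reads (adjusted p = 0.0542, quasi-binomial model with limma's moderation) and when CpGs over 3 times the median coverage were left out (adjusted p = 0.128, same model). In that bin 18 CpGs between 70001 and 80000 carried 2006.5 of the 10820 reads per animal.

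The lowest bins of all were mixed in kind. The lowest, on chromosome 21 from 37400001 to 37500000, was at 55.2%, 57.0% and 57.7% in fetuses 1, 2 and 3 and 56.9%, 53.1% and 55.4% in lambs 1, 2 and 3, over 149 usable CpGs. The next, on chromosome 5 from 49600001 to 49700000, listed 1935 CpGs, of which 1211 lay in UMRs, LMRs or DMVs, and its background was at 55.5% ± 3.32 in fetuses and 57.7% ± 2.66 in lambs (SD, n = 3 each). The bin on chromosome 7 from 22600001 to 22700000 had a mean coverage of 13.4 reads per background CpG and animal, over 2 times the median of 6.18 over all bins, and was at 56.6% ± 1.29 and 57.3% ± 2.91 (SD, n = 3 each). Of all 24433 bins 23, or 0.0941%, had a coverage of usable CpGs over 2 times the median, and 15 of these were low bins, which is 0.614% of the low bins. The part of such coverage in their level was not tested. The other 5 of the 8 lowest lay on chromosome 25 from 2700001, chromosome 11 from 300001 and from 500001, chromosome 2 from 112000001 and chromosome 12 from 6400001, at 57.0% to 58.0% with the animals pooled. None of the 8 was called different between the stages; the bin on chromosome 2 had the largest difference of them, 5.88 points (adjusted p = 0.895, quasi-binomial model with limma's moderation). At the other end, the 2 highest bins, on chromosome 1 from 250700001 and chromosome 16 from 37100001, both at 93.1%, held no UMR, LMR or DMV at all.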

How the data were processed

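For every CpG the deposited table gives, per animal, the authors' raw read counts, methylated and total, in columns matched by the sample descriptions; the other deposited files are region lists of positions. Reads came from 1 lane of paired 100-base sequencing per animal, per the labels' protocols, and were mapped to Oar_v3.1 per the series text. BWA, Picard, Oar_v3.1 and hg19 are named without roles per the submitters' processing notes; caller, filters and list calling: not given in the sources used here. Of 26377052 positions, 24936679 were autosomal and 13133379 were usable background CpGs. The description tags end in TV for fetal and VEH for lamb samples, which cannot be told apart from stage.

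Bins, lists and alternatives were chosen with earlier results of these data known. Class levels are sums of methylated over covering reads, described without a test because the rule used them. Bins were tested by a quasi-binomial model, lamb against fetal, two-sided, with limma's squeezeVar (prior dispersion 4.19, not below 1) and Benjamini-Hochberg adjustment. In the main fit every bin took the prior dispersion. The test was tried on simulated reads with a lower dispersion, so its error rate in data like these was not shown. Bins were named by rule: the 8 lowest, the 3 longest runs (here 4, with a tie), those at the threshold, called low bins without overlap, and the 2 highest. Positions count from 1. Intervals are SDs between animals; counting error was not modelled apart. Versions were edgeR 4.0.16, limma 3.58.1 and R 4.3.3 for the tests, and numpy 2.4.6 under Python 3.11.15 for the sums.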

Additional observations from a re-analysis of the deposited data

How the results depend on the processing

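The prior dispersion that follows read number and the reading at alternate CpGs were chosen after seeing the data. The stage difference of the low bins, 1.28 points, was 0.953 points with members chosen on the lambs alone and 1.61 points with members chosen on the fetuses alone. Choosing on a single stage favours bins low in that stage, so the direction of these shifts was set by the choice. Over the other settings the difference ran from 1.12 to 1.38 points, and without an animal from 0.463 to 1.93 (lowest without lamb 2). The mean level of the low bins, 68.3%, was 70.7% with a minimum of 5 reads, 70.0% with at least 200 CpGs per bin, and 66.5% and 70.4% for the lowest 5% and 20% of bins, as these settings choose other members: 576 and 1156 of the low bins still qualified with 5 reads and with 200 CpGs, and 573 and 1156 were chosen again, and with 200 CpGs 3.40% of low bins lay in the first 2 Mb (11.8% for the lowest 5%), against 6.55%. Without an animal the level ran from 67.8% to 68.5%. Called bins, 15 in all with 4 low, numbered 4 and 1 with at least 5 points, 7 and 1 with the prior that follows read number, 0 and 0 with limma on log2 ratios and with limma after centring, 6 and 1 with edgeR, 5 and 1 with the replicate block, and 3 and 0 with 1 kb more masked. With a minimum of 5 reads 7 of that setting's 1832 low bins were called (0.382%), against 18 of 18324 bins in all (0.0982%). Most of those low bins are not members in the main setting. Without an animal the calls ran from 1 to 100 in all (100 without lamb 1, 1 without fetus 3) and from 0 to 9 in low bins. Without lamb 1, 7 high bins were called, or 0.287%, against 0.409% of all bins. After centring, 2021 bins had an unadjusted p under 0.05. Deviations of same-numbered animals over bins correlated by 0.0622, 0.215 and 0.0790. Fetuses 2 and 3 correlated best with the lamb of their own number, and fetus 1 with lamb 3, at 0.0776. The replicate block rests on the shared number alone. The causes of these changes were not tested except where said.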
